A study of Mus musculus with 10 samples.

Results

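The constitutive proteasome subunits and their regulators were taken as every protein-coding gene of the deposited expression table whose mouse symbol begins with Psma to Psmg followed by a digit, without Psmb8, Psmb9 and Psmb10, the catalytic subunits of the immunoproteasome. The rule found 47 genes among the 51456 genes of the table. Of these, 16 encode core subunits, 17 cap subunits, 7 assembly chaperones, 6 activators or the inhibitor PI31, and the last, Psmc3ip, matches by symbol only and encodes a factor of meiotic recombination. The expression filter of at least 1 FPKM (fragments scaled to transcript length and to the mapped fragments of the library) in at least 5 libraries kept 46 of the 47. The exception was Psmb11, the catalytic subunit of the thymus proteasome, which averaged 0.123 ± 0.0886 FPKM in LSC-labelled and 0.211 ± 0.137 FPKM in HSC-labelled libraries (SD, n = 5 each).

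The proteasome degrades proteins that carry ubiquitin chains. Its core particle is a barrel of stacked alpha and beta rings: the alpha rings form the gate, and the beta rings hold the proteolytic sites. A cap docks on the alpha ring. The base of the cap is a ring of ATPases that unfolds substrates, with scaffold subunits that receive ubiquitin, and the lid removes the ubiquitin chain. Dedicated chaperones assemble the core and the base. The PA28 and PA200 activators dock on the same alpha ring as the cap. When proteasome activity falls, the transcription factor NRF1 (Nfe2l1) raises proteasome genes through antioxidant response elements in their promoters. In blood cancers the proteasome is best known as the target of bortezomib, which binds the catalytic site of Psmb5.

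RNA of sorted mouse bone marrow cells was sequenced in 10 libraries. The 5 LSC-labelled libraries are described as leukaemia stem cells, sorted as lineage-negative, Sca-1-negative, c-Kit-positive, CD16/32-positive and CD34-positive cells, and taken from mice whose acute myeloid leukaemia MLL-AF9 drives, an oncogenic fusion gene. The 5 HSC-labelled libraries are described as haematopoietic stem cells, gated as CD150-positive and CD48-negative within the LSK population, from C57BL/6J mice of wild-type genotype. The genotype label reads wild-type for both groups. The labels do not give the age of the mice, how the leukaemia was started, how many mice went into a library, or which cells of the host the leukaemic marrow still held. Nor do they say whether replicates are separate mice, and each p-value therefore covers the spread between these libraries only.

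Several of the genes that the sort gates rest on ran against the labels, and others did not. Ly6a, which encodes Sca-1, stood at 43.5 to 105 FPKM in LSC-labelled and 0.270 to 2.52 FPKM in HSC-labelled libraries, although the LSC gate is Sca-1-negative. Slamf1, which encodes CD150, stood at 2.29 to 3.09 FPKM in LSC-labelled and 0.204 to 0.890 FPKM in HSC-labelled libraries. Fcgr3, which encodes CD16, averaged 197 ± 20.7 FPKM in LSC-labelled and 371 ± 117 FPKM in HSC-labelled libraries (SD, n = 5 each). Hoxa9, a gene that MLL fusions activate, averaged 7.06 ± 0.945 FPKM in LSC-labelled and 57.04 ± 7.58 FPKM in HSC-labelled libraries (SD, n = 5 each). Cd34, positive in the LSC gate, ran with the labels, at 87.99 to 97.4 FPKM in LSC-labelled and 7.51 to 41.7 FPKM in HSC-labelled libraries. Kit, positive in both gates, averaged 61.6 ± 2.99 FPKM in LSC-labelled and 21.5 ± 8.36 FPKM in HSC-labelled libraries (SD, n = 5 each). Cd48, negative in the HSC gate, was not called, at 153 ± 11.8 FPKM in LSC-labelled and 130.3 ± 23.0 FPKM in HSC-labelled libraries (SD, n = 5 each, limma adjusted p = 0.143). The labels were kept as deposited, and every direction below is that of the library labelled LSC against the library labelled HSC.

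Markers of several blood lineages were also higher in LSC-labelled libraries, by the same test as used for the proteasome genes. Of the markers tested, 7 of 12 erythroid, 9 of 9 megakaryocyte and platelet, 9 of 10 neutrophil, 6 of 7 mast cell and basophil, 4 of 5 B cell, 3 of 4 T and NK cell, 6 of 7 stroma and bone and 6 of 8 HSC markers were higher. Of the HSC markers, 1 was lower, as were 5 of 9 monocyte and macrophage markers. No marker of the other lists was lower. Over all 13431 genes tested, 27.2% were higher and 13.8% lower. Without HSC-labelled replicates 3 and 4, the neutrophil count fell to 4 of 10, as S100a8, S100a9, Camp, Lcn2 and Mmp9 lost their calls. The summed level of the neutrophil list ran at 1726 to 20110 FPKM in LSC-labelled and 596 to 3353 FPKM in HSC-labelled libraries. In absolute FPKM, though not relative to level, the LSC-labelled range was the widest within a group of any of these lists. The summed level of the erythroid list was 1471 to 2995 FPKM in LSC-labelled and 130.5 to 1710 FPKM in HSC-labelled libraries. HSC-labelled replicate 2 alone held the 1710 FPKM, and the other HSC-labelled libraries stood at 130.5 to 452.8 FPKM. It was also the highest HSC-labelled library for megakaryocytes and platelets, at 270.1 FPKM against 21.1 to 83.2 FPKM in the others. The sums were 789 to 1282 against 21.1 to 270.1 FPKM for megakaryocytes and platelets, 797 to 1775 against 42.3 to 133 FPKM for mast cells and basophils, and 279.6 to 1033 against 19.7 to 53.6 FPKM for stroma and bone, LSC-labelled before HSC-labelled. In the same order, they were 38.6 to 67.4 against 32.1 to 52.3 FPKM for B cells, 21.6 to 57.0 against 2.96 to 10.7 FPKM for T and NK cells, 89.3 to 148 against 19.1 to 34.0 FPKM for HSC markers, and 629.9 to 1032 against 870.2 to 1727 FPKM for monocytes and macrophages. No marker was at 0 in every library of a group. The part of these marker differences in the proteasome results was not tested. In bulk libraries fewer cells of a type and less RNA per cell cannot be told apart.

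Proteasome genes were higher in LSC-labelled libraries across the core, the cap, the chaperones and the activators. With limma on log2(FPKM + 1) and Benjamini-Hochberg adjustment over all 13431 genes tested, 35 of the 46 members tested were higher (76.1%), against 27.2% of all genes tested and 33.9% of the genes that averaged at least 50 FPKM. No member was lower by limma, at the adjusted threshold or at an unadjusted p under 0.05, against 13.8% of all genes at the adjusted threshold. All 46 fitted changes were above 0. Their median log2 fold change was 0.39, against 0.11 for all genes tested and 0.17 for genes averaging at least 50 FPKM. The changes were mostly modest, and 10 members exceeded a fold change of 1.5. In 27 members every LSC-labelled library lay above every HSC-labelled library, which was so for 20.0% of all genes tested.

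The scaling of the libraries bears on the size of these changes. Scaling by the median of ratios moved the median log2 fold change of all genes by more than 0.1, to -0.003, against 0.11 as deposited. It left 27 members higher, with a median of 0.26 and a background of 21.0% higher, and the fitted changes of Psma6, Psmd10, Psmd13 and Psme4, which were not called under either scaling, turned below 0. HSC-labelled replicates 3 and 4 had the lowest scaling factors, 0.884 and 0.868, against 1.00 to 1.06 in the other libraries, and ribosomal RNA took 10.4% and 10.7% of their FPKM sum. Ribosomal RNA was nearly as high in HSC-labelled replicate 2, at 9.30%, whose scaling factor was 1.00, and 5.22% to 6.97% in the other libraries. With quantile normalization 32 members were higher (background 20.7%), and with GC and length trends removed 28 (background 22.7%). Without HSC-labelled replicates 3 and 4, 29 members were higher, with a median of 0.31 and a background of 20.8% higher. No member was called lower under any alternative. Of the 35 calls, 24 held under every alternative and 29 in every run that left out 1 library.

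**Figure D1:**
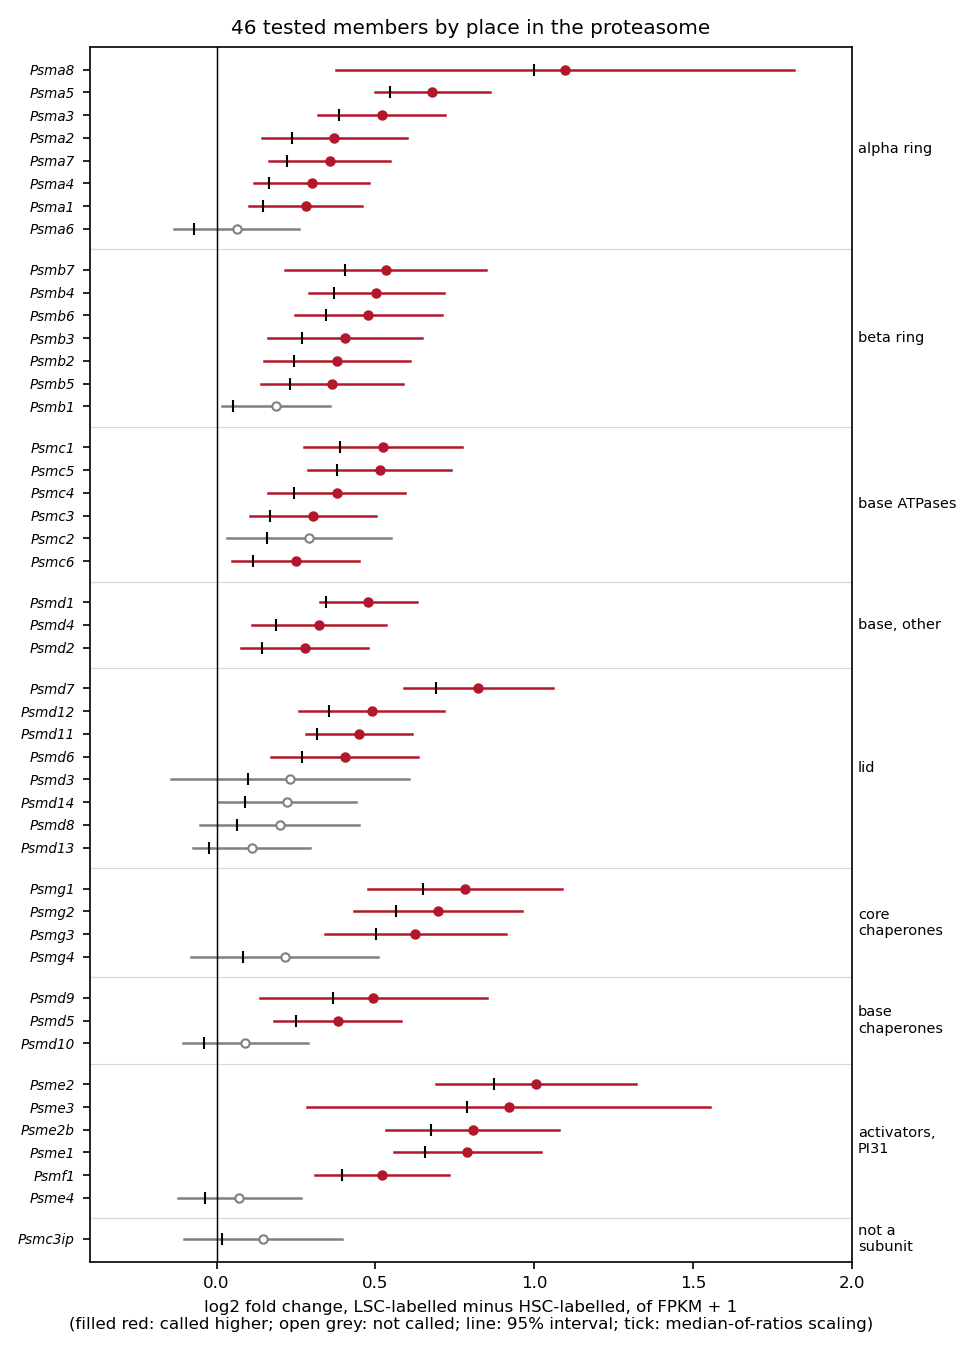
Log2 fold change on the log2(FPKM + 1) scale, LSC-labelled minus HSC-labelled (x axis), of the 46 members tested (y axis, by class). Points are estimates with 95% intervals from limma, filled red where the adjusted p was under 0.05 and open grey where it was not, and ticks give the estimate under median-of-ratios scaling. All 46 points lie right of 0, and Psma8, Psme2 and Psme3 lie farthest right.

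The alpha ring, which gates the core, was higher for 7 of its 8 genes, with a median log2 fold change of 0.36. Psma5, a structural alpha subunit, had 221, 227, 215, 210.3 and 220.2 FPKM in LSC-labelled replicates 1 to 5, against 129.6, 145, 138, 118 and 153 FPKM in HSC-labelled replicates 1 to 5. The groups were far apart for Psma5, the lowest LSC-labelled value being above the highest HSC-labelled value by more than either group's SD, and the log2 fold change was 0.68 (SE 0.08, limma adjusted p = 8.35e-05). Psma7, the alpha subunit of highest level per length in LSC-labelled libraries by mean, had 333, 350.2, 353, 309 and 329.5 FPKM in LSC-labelled and 281, 256, 238, 239.7 and 297 FPKM in HSC-labelled replicates 1 to 5. In HSC-labelled libraries Psma1 stood slightly higher, averaging 264 ± 22.6 FPKM against 262 ± 25.9 FPKM for Psma7 (SD, n = 5 each). The groups of Psma7 did not overlap, and its log2 fold change was 0.36 (SE 0.09, limma adjusted p = 0.00662). Psma6 was the member of this ring that did not pass the test. It averaged 272 ± 13.8 FPKM in LSC-labelled and 261 ± 27.99 FPKM in HSC-labelled libraries (SD, n = 5 each), with overlapping groups and a limma adjusted p of 0.604. Psma1, Psma2, Psma3 and Psma4 were higher with log2 fold changes of 0.28 to 0.52. Under median-of-ratios scaling Psma1 and Psma4 no longer passed (limma adjusted p = 0.219 and 0.129).

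Psma8 is the paralogue of Psma7 that replaces it in the proteasome of the testis. It stood far below the other alpha genes, at 3.07, 3.91, 3.47, 3.89 and 4.91 FPKM in LSC-labelled replicates 1 to 5 and 0.727, 1.51, 0.589, 4.797 and 0.444 FPKM in HSC-labelled replicates 1 to 5. HSC-labelled replicate 4 lay among the LSC-labelled libraries, while the other 4 HSC-labelled libraries lay below all of them. Its log2 fold change, 1.10, was the largest of all members (SE 0.33, limma adjusted p = 0.0197), and it was called with and without HSC-labelled replicate 4. With no expression filter the call of Psma8 was lost (limma adjusted p = 0.0562).

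The beta ring was higher for 6 of the 7 genes tested, with a median of 0.40, and in these 6 every LSC-labelled library exceeded every HSC-labelled library. The 3 constitutive catalytic subunits all rose. Psmb5, the chymotrypsin-like subunit, had 226, 179, 183, 178 and 193 FPKM in LSC-labelled and 154, 137, 152, 128 and 173 FPKM in HSC-labelled replicates 1 to 5. LSC-labelled replicate 1 was the highest of the 10 and the rest of its group lay close together just above the HSC-labelled range, and the log2 change was 0.36 (SE 0.10, limma adjusted p = 0.0138). Psmb6, the caspase-like subunit, had 320.4, 316, 324, 292 and 303 FPKM in LSC-labelled and 245, 214, 215, 181 and 269 FPKM in HSC-labelled replicates 1 to 5. Psmb7, the trypsin-like subunit, had 31.3, 35.6, 36.4, 33.1 and 35.5 FPKM in LSC-labelled and 27.4, 27.3, 20.0, 16.5 and 28.5 FPKM in HSC-labelled replicates 1 to 5. HSC-labelled replicates 3 and 4 were the lowest for Psmb7, and its level per length was far below those of Psmb5 and Psmb6 in all 10 libraries. The log2 fold changes were 0.48 for Psmb6 and 0.53 for Psmb7 (SE 0.11 and 0.14, limma adjusted p = 0.00374 and 0.0120). The call of Psmb5 was lost under median-of-ratios scaling (limma adjusted p = 0.0691) and without HSC-labelled replicates 3 and 4 (limma adjusted p = 0.0530). Psmb5 also shares 109 exon bases with the microRNA gene Mir686 on its strand.

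Among the non-catalytic beta genes, Psmb4 changed most, with 304, 339, 318, 304 and 329 FPKM in LSC-labelled and 226, 263, 205, 191 and 244 FPKM in HSC-labelled replicates 1 to 5. Psmb2 had the highest mean level per length of all members in both groups, with 385, 436, 411, 371 and 396 FPKM in LSC-labelled and 332, 329, 279, 251 and 353 FPKM in HSC-labelled replicates 1 to 5. Neither gene's groups overlapped, and the log2 fold changes were 0.50 for Psmb4 and 0.38 for Psmb2 (SE 0.10 and 0.10, limma adjusted p = 0.00171 and 0.0130). Psmb3 was also higher, with a log2 fold change of 0.40. Psmb1, another structural subunit, did not pass the test, at 165 ± 8.90 FPKM in LSC-labelled and 145 ± 10.9 FPKM in HSC-labelled libraries (SD, n = 5 each, limma adjusted p = 0.0754).

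The promoters of Psmb5 and Psmb6 are shown because both hold the core of the antioxidant response element, TGACNNNGC, through which NRF1 and NRF2 act on proteasome genes. The RefSeq promoter table (GRCm38.p6) covers 39 of the 47 members and spans 250 bases before to 50 bases after the gene start. The capitals mark the element, which starts 47 bases upstream of the start of Psmb5 (chr14:54617946-54618245, minus strand) and 9 bases upstream of the start of Psmb6 (chr11:70525107-70525406, plus strand).
Psmb5: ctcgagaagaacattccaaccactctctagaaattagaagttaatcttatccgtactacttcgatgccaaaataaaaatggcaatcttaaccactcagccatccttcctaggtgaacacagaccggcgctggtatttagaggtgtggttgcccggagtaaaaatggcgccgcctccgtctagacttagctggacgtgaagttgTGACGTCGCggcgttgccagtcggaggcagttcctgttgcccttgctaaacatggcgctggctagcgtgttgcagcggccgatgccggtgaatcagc
Psmb6: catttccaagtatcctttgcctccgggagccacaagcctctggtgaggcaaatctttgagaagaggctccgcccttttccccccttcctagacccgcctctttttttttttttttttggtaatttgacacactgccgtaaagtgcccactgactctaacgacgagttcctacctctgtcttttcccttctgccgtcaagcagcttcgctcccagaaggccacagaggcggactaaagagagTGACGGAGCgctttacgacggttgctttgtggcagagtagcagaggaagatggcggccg
Searched on both strands, TGACNNNGC was found in the promoters of 6 of the 39 members (15.4%) and of 14.0% of the 27025 genes of the promoter table. The 6 were Psmb5, Psmb6, Psmc6, Psmd12, Psmd9 and Psme4, of which Psme4 was not called. CCAAT, the box bound by NF-Y, was found for 14 of the 39 (35.9%) and for 41.1% of the 27025 genes. The members thus held both motifs at shares near those of all genes of the promoter table.

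The base of the cap was higher for 8 of 9 genes, among them 5 of the 6 ATPases. Psmc1 had 128, 154, 162, 136 and 139.5 FPKM in LSC-labelled and 102, 108, 94.7, 78.9 and 118 FPKM in HSC-labelled replicates 1 to 5. Psmc5 had 132, 152, 168, 139 and 154 FPKM in LSC-labelled and 102, 108, 106, 85.6 and 120.1 FPKM in HSC-labelled replicates 1 to 5. Both encode ATPases of the unfolding ring, and neither gene's groups overlapped. Their log2 fold changes were 0.52 for Psmc1 and 0.51 for Psmc5 (SE 0.11 and 0.10, limma adjusted p = 0.00346 and 0.00212). Psmc3, the most abundant ATPase per length, had 186, 183, 199, 166 and 191 FPKM in LSC-labelled and 158, 139, 150.2, 132 and 173 FPKM in HSC-labelled replicates 1 to 5. Here LSC-labelled replicate 4 lay below the highest HSC-labelled library, and the log2 fold change was 0.30 (SE 0.09, limma adjusted p = 0.0199). Psmc2 was not called, at 60.3 ± 7.12 FPKM in LSC-labelled and 49.2 ± 6.78 FPKM in HSC-labelled libraries (SD, n = 5 each, limma adjusted p = 0.0682). Psmc6 passed narrowly, with a log2 fold change of 0.25 and a limma adjusted p of 0.0478, and Psmc4 had a log2 fold change of 0.38. Leaving out any library other than HSC-labelled replicate 5 or LSC-labelled replicate 1 ended the call of Psmc6 (limma adjusted p 0.00990 to 0.118 over the 10 runs). Psmc3 lost its call without LSC-labelled replicate 3 or 5 (0.00912 to 0.0529), and Psmc2 gained one when HSC-labelled replicate 5 or else LSC-labelled replicate 1 was omitted (0.0217 to 0.147).

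The scaffold and ubiquitin-receptor genes of the base were all 3 higher. Psmd1, a large scaffold subunit, had 84.4, 95.6, 91.5, 94.3 and 88.9 FPKM in LSC-labelled and 61.7, 63.8, 69.4, 63.2 and 67.2 FPKM in HSC-labelled replicates 1 to 5. Psmd4, a ubiquitin receptor, had 121, 127, 139, 111 and 130.3 FPKM in LSC-labelled and 107, 102, 98.8, 83.1 and 112 FPKM in HSC-labelled replicates 1 to 5. Psmd2, the other large scaffold and the docking site of shuttle factors, had 125, 140.3, 136, 136 and 135 FPKM in LSC-labelled and 105, 95.7, 128, 105 and 123 FPKM in HSC-labelled replicates 1 to 5. The groups stood clear of each other for Psmd1, touched for Psmd4, between LSC-labelled replicate 4 and HSC-labelled replicate 5, and overlapped for Psmd2, where HSC-labelled replicate 3 was the highest of its group. The log2 fold changes were 0.48, 0.32 and 0.28 in that order (SE 0.07, 0.10 and 0.09, limma adjusted p = 0.000289, 0.0193 and 0.0309). The call of Psmd2 ended in 7 of the 10 runs without 1 library, those that omitted HSC-labelled replicate 1, 2 or 4, or any LSC-labelled replicate but 1 (limma adjusted p 0.0135 to 0.0714). That of Psmd4 ended without LSC-labelled replicate 3 (0.0157 to 0.0525 over the 10 runs). Under median-of-ratios scaling 4 of the 9 base genes were called.

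Of the lid genes among the members, 4 of 8 were higher and 4 were not called, with a median of 0.32. Under median-of-ratios scaling the count of higher genes was again 4. Sem1, a lid subunit outside the symbol pattern, was lower (limma adjusted p = 0.0237). Psmd7, the partner of the deubiquitinase Psmd14, changed most of all core and cap genes save Psma8. It had 166, 205, 218, 175 and 204 FPKM in LSC-labelled and 109, 119.6, 104, 91.2 and 121 FPKM in HSC-labelled replicates 1 to 5. The lowest LSC-labelled library stood well above the highest HSC-labelled one, and the log2 fold change was 0.82 (SE 0.11, limma adjusted p = 0.000132). Psmd12, a scaffold subunit of the lid, had 66.9, 90.7, 90.2, 82.5 and 83.7 FPKM in LSC-labelled and 58.2, 62.7, 56.5, 50.2 and 65.5 FPKM in HSC-labelled replicates 1 to 5. Its groups nearly met, at LSC-labelled replicate 1 and HSC-labelled replicate 5, and its log2 fold change was 0.49 (SE 0.10, limma adjusted p = 0.00324). Psmd6 and Psmd11, likewise scaffold subunits, were higher with log2 fold changes of 0.40 and 0.45.

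The 4 lid genes that were not called had overlapping groups. Psmd14, whose product cuts the ubiquitin chain from the substrate, averaged 139 ± 9.65 FPKM in LSC-labelled and 119.8 ± 15.03 FPKM in HSC-labelled libraries (SD, n = 5 each, limma adjusted p = 0.0950). Without HSC-labelled replicate 5 it was called higher (0.0411 to 0.193 over the 10 runs without 1 library). Psmd13 averaged 113 ± 2.67 FPKM in LSC-labelled and 105 ± 11.04 FPKM in HSC-labelled libraries, and Psmd8 108 ± 5.23 FPKM in LSC-labelled and 95.2 ± 16.1 FPKM in HSC-labelled libraries (SD, n = 5 each, limma adjusted p = 0.324 and 0.188). Psmd3 averaged 66.1 ± 15.9 FPKM in LSC-labelled and 55.3 ± 8.49 FPKM in HSC-labelled libraries (SD, n = 5 each, limma adjusted p = 0.306), and it was the lid gene with the largest SD within the LSC-labelled group relative to its mean. Psmd7 and Psmd14 encode partners in the lid, yet in LSC-labelled libraries Psmd7 exceeded Psmd14 in level per length in all 5, and in HSC-labelled libraries it lay below Psmd14 in all 5.

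**Figure D2:**
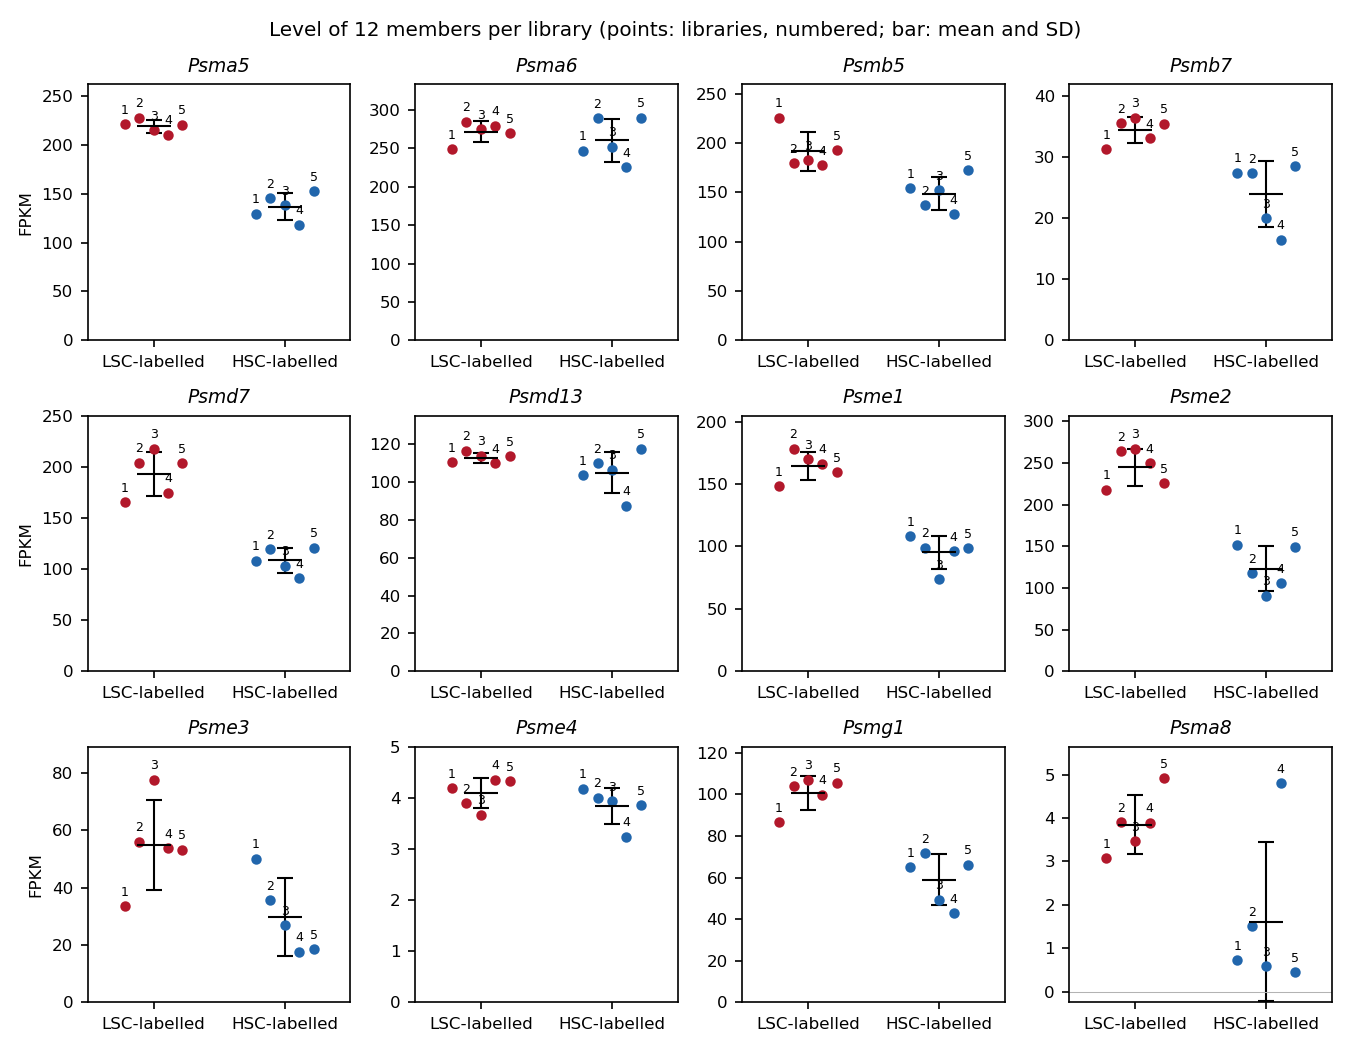
FPKM (y axes, each from 0 or below) of 12 members in each library, LSC-labelled left and HSC-labelled right of each panel. Points are libraries, and the bars are group means with SD (n = 5 each). Psma5, Psmd7, Psme1, Psme2 and Psmg1 separate completely, Psma6, Psmd13 and Psme4 overlap, and HSC-labelled replicate 4 stands apart for Psma8.

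Among the members, core and cap stood in nearly the same proportion in both groups. The core was summed over 14 genes, without Psma8 and Psmb11. Its summed level was 3099, 3312, 3210.0, 3046 and 3157 FPKM in LSC-labelled replicates 1 to 5, against 2487, 2563, 2375, 2102 and 2782 FPKM in HSC-labelled replicates 1 to 5. That of the 17 cap genes was 1816, 2079, 2157, 1900.0 and 2028 FPKM in LSC-labelled and 1531, 1568, 1535, 1308 and 1732 FPKM in HSC-labelled replicates 1 to 5. Every LSC-labelled sum exceeded every HSC-labelled sum, and the group means differed 1.29-fold for the core and 1.30-fold for the cap. The ratio of cap to core averaged 0.630 ± 0.0312 in LSC-labelled and 0.624 ± 0.0134 in HSC-labelled libraries, and that of lid to base 0.821 ± 0.0122 in LSC-labelled and 0.816 ± 0.0490 in HSC-labelled libraries (SD, n = 5 each), with overlapping groups for both. Within the core, the beta ring sum differed 1.32-fold and the alpha ring sum 1.25-fold. By count of calls, 13 of 15 core genes, Psma8 among them, and 12 of 17 cap genes were higher, which became 10 and 8 under median-of-ratios scaling. Without LSC-labelled replicate 3 the cap had 8 calls and the core 13. These sums are dominated by the most abundant genes, and no test was run on them. The cap sums leave out Sem1 of the lid and Adrm1 of the base, which lie outside the symbol pattern. Sem1 was called lower, against the direction of the cap sum, at 105 FPKM in LSC-labelled and 141 FPKM in HSC-labelled libraries (limma adjusted p = 0.0237). Adrm1 averaged 32.9 FPKM in LSC-labelled and 27.4 FPKM in HSC-labelled libraries. The proportions with these genes added were not computed, so the ratios above hold for the members only.

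**Figure D3:**
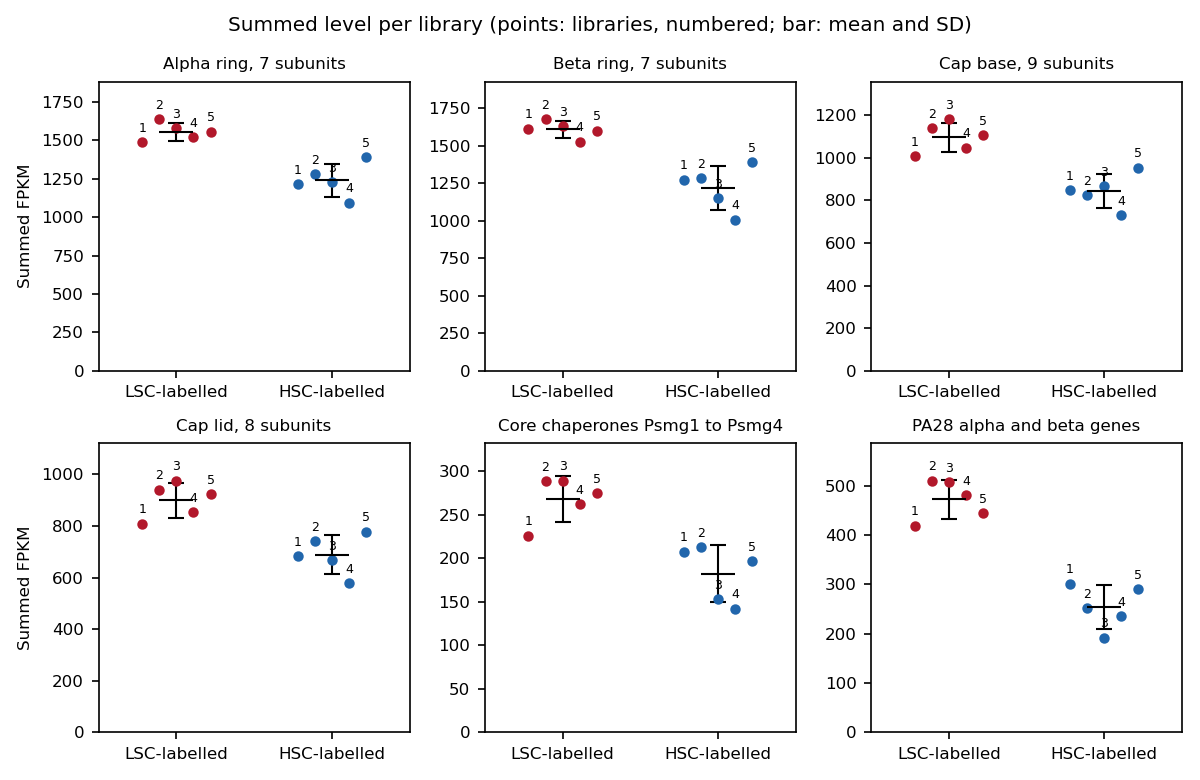
Summed FPKM (y axes) of 6 groups of proteasome genes in each library, LSC-labelled left and HSC-labelled right of each panel; points are libraries and bars are group means with SD (n = 5 each). All 5 LSC-labelled sums lie above all 5 HSC-labelled sums in each panel. The gap relative to the mean is widest for the PA28 alpha and beta genes, at 419 to 509.7 against 192 to 301 FPKM.

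Of the 4 chaperones that build the alpha ring, 3 were higher, with a median log2 fold change of 0.66 over the 4, against 0.36 for the alpha ring; the difference was not tested. Psmg1 and Psmg2 encode partners that act as a pair. Psmg1 had 86.7, 104, 107, 99.8 and 106 FPKM in LSC-labelled and 64.9, 71.6, 49.3, 42.9 and 66.1 FPKM in HSC-labelled replicates 1 to 5, and Psmg2 had 59.2, 81.3, 74.6, 71.9 and 71.95 FPKM in LSC-labelled and 49.0, 49.4, 40.9, 34.04 and 47.1 FPKM in HSC-labelled replicates 1 to 5. For both genes LSC-labelled replicate 1 was the lowest of its group, yet above every HSC-labelled library. The log2 fold changes were 0.78 for Psmg1 and 0.70 for Psmg2 (SE 0.14 and 0.12, limma adjusted p = 0.00105 and 0.000871). Psmg3 and Psmg4 form the second pair, and Psmg3 was higher (0.63, SE 0.13, limma adjusted p = 0.00271) whereas Psmg4 was not called, at 80.1 ± 9.23 FPKM in LSC-labelled and 69.5 ± 12.96 FPKM in HSC-labelled libraries (SD, n = 5 each, limma adjusted p = 0.226). The summed core chaperones were 1.47-fold higher, but their ratio to the summed core overlapped between the groups, at 0.0730 to 0.0901 in LSC-labelled and 0.0646 to 0.0835 in HSC-labelled libraries.

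Of the chaperones that build the base, 2 of 3 were higher. Psmd5 had 31.1, 40.8, 39.6, 36.2 and 36.1 FPKM in LSC-labelled and 30.4, 26.02, 27.3, 26.1 and 29.9 FPKM in HSC-labelled replicates 1 to 5, without overlap. Psmd9 had 26.3, 35.2, 36.6, 27.4 and 33.4 FPKM in LSC-labelled and 22.1, 31.6, 19.6, 16.2 and 23.6 FPKM in HSC-labelled replicates 1 to 5, with HSC-labelled replicate 2 inside the LSC-labelled range. Psmd10, also called gankyrin, had 34.04, 41.98, 37.2, 36.1 and 38.5 FPKM in LSC-labelled and 37.97, 34.3, 33.6, 30.8 and 39.7 FPKM in HSC-labelled replicates 1 to 5 and was not called. The log2 fold changes were 0.38 for Psmd5, 0.49 for Psmd9 and 0.09 for Psmd10 (SE 0.09, 0.16 and 0.09, limma adjusted p = 0.00597, 0.0307 and 0.451). Psmd9 lost its call in 6 of the 10 runs, those that omitted replicate 1, 3 or 4 of the HSC-labelled or 2, 3 or 5 of the LSC-labelled group (limma adjusted p 0.00416 to 0.0743 over the 10 runs without 1 library). Of its exon bases, 25.5% are shared with the gene Gm26745 on the opposite strand, the largest such share of any member. In all, 10 members share exon bases with a gene on the opposite strand and 4 with one on their own strand; reads from opposite strands cannot be told apart where the counting ignores strand.

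The 3 PA28 alpha and beta genes, Psme1, Psme2 and Psme2b, were all higher and were among the 10 members past a fold change of 1.5. They are the PA28 genes of the sums and ratios here, which leave out Psme3, the PA28 gamma gene. PA28 alpha and beta, the products of Psme1 and Psme2, form a ring that opens the core without ATP and is induced by interferon. Psme1 had 148, 178, 169.9, 166 and 159.6 FPKM in LSC-labelled and 108, 99.03, 73.7, 96.3 and 98.8 FPKM in HSC-labelled replicates 1 to 5. Psme2 had 218, 264, 267, 249 and 225 FPKM in LSC-labelled and 152, 118, 90.8, 106 and 149.6 FPKM in HSC-labelled replicates 1 to 5. In both genes HSC-labelled replicate 3 was the lowest library, and no HSC-labelled library came near the LSC-labelled range. The log2 fold changes were 0.79 for Psme1 and 1.01 for Psme2 (SE 0.11 and 0.14, limma adjusted p = 0.000159 and 0.000251). Under median-of-ratios scaling they were 0.66 for Psme1 and 0.87 for Psme2. The ratio of the summed PA28 genes to the summed core was 0.135 to 0.158 in LSC-labelled and 0.0809 to 0.121 in HSC-labelled libraries, without overlap.

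Psme2b is a near-identical copy of Psme2 on chromosome 11. It had 52.5, 67.7, 70.6, 64.7 and 59.1 FPKM in LSC-labelled and 40.7, 34.97, 27.7, 33.4 and 41.9 FPKM in HSC-labelled replicates 1 to 5, and the log2 change was 0.81 (SE 0.12, limma adjusted p = 0.000408). The transcripts of the 2 genes (GENCODE M21) were identical at 711 of 716 aligned bases (99.3%), with a longest identical run of 264 bases. A stretch of 100 coding bases is shown for each, with the base that differs in capitals, because reads shorter than the identical runs cannot be given to one copy; Psme2 lies at chr14:55587441-55591113 and Psme2b at chr11:48945354-48946190 on mm10, both on the minus strand.
Psme2: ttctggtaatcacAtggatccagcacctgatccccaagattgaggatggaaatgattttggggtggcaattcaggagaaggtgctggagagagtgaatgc
Psme2b: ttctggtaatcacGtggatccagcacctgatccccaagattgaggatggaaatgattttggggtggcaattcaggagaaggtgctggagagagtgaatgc
The separate levels of Psme2 and Psme2b are therefore uncertain. The sum of the PA28 genes was 472 ± 39.9 FPKM in LSC-labelled and 254 ± 43.9 FPKM in HSC-labelled libraries (SD, n = 5 each), and how far it depends on the split of reads between the copies was not tested. The ratio of Psme2b to Psme2 was 0.241 to 0.265 in LSC-labelled and 0.268 to 0.315 in HSC-labelled libraries.

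The promoter of Psme1 is shown because it holds the core of the interferon-stimulated response element, GAAA and GAAA separated by any 2 bases, on the reverse strand 10 bases downstream of the start (chr14:55578244-55578543, plus strand, RefSeq, GRCm38.p6). The capitals mark the element as read on the gene's strand, and this motif was chosen after promoters of members had been seen.
Psme1: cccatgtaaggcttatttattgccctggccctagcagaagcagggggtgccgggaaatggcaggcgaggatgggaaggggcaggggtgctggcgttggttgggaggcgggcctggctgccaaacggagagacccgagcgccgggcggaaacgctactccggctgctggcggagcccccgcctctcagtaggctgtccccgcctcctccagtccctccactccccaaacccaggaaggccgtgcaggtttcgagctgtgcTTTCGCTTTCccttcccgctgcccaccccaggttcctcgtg
The motif, searched on both strands, was found in the promoters of 5 of the 39 members (12.8%), Psmb3, Psmd4, Psmd9, Psme1 and Psmg4. It was found for 3.99% of the 27025 genes of the promoter table. Psmg4 was not called, and the motif was held by 4 of the 29 members called higher and by 1 of the 10 others.

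The other activators behaved differently from each other. Psme3, the nuclear PA28 gamma, had 33.5, 55.9, 77.5, 53.7 and 53.2 FPKM in LSC-labelled and 50.1, 35.6, 26.8, 17.6 and 18.5 FPKM in HSC-labelled replicates 1 to 5. Its groups overlapped widely, with HSC-labelled replicates 1 and 2 inside the LSC-labelled range and HSC-labelled replicates 4 and 5 lowest. Its log2 fold change, 0.92 (SE 0.29, limma adjusted p = 0.0250), was not called without HSC-labelled replicates 3 and 4 (limma adjusted p = 0.126), nor when replicate 4 or 5 of the HSC-labelled or replicate 2 or 3 of the LSC-labelled group was omitted (0.00589 to 0.0629 over the 10 runs without 1 library). Psme4, the PA200 activator, had 4.201, 3.91, 3.68, 4.36 and 4.34 FPKM in LSC-labelled and 4.19, 4.02, 3.95, 3.25 and 3.87 FPKM in HSC-labelled replicates 1 to 5. These ranges largely coincide, and Psme4 was not called (limma adjusted p = 0.545). Psmf1, which encodes the inhibitor and adaptor PI31, had 18.6, 23.5, 20.8, 18.8 and 20.9 FPKM in LSC-labelled and 12.9, 16.4, 13.5, 12.6 and 14.7 FPKM in HSC-labelled replicates 1 to 5. Its groups did not overlap, and its log2 fold change was 0.52 (SE 0.10, limma adjusted p = 0.00130). Psmc3ip, the symbol match outside the proteasome, was not called, at 29.2 ± 1.68 FPKM in LSC-labelled and 26.5 ± 4.53 FPKM in HSC-labelled libraries (SD, n = 5 each, limma adjusted p = 0.325).

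The immunoproteasome subunits that the rule leaves out, which interferon induces and which replace the catalytic beta subunits, were all 3 higher. Each had a larger fitted change than its constitutive partner, and the difference between partners was not tested. Psmb9, the counterpart of Psmb6, averaged 91.8 ± 7.31 FPKM in LSC-labelled and 38.0 ± 10.8 FPKM in HSC-labelled libraries (SD, n = 5 each), and its log2 fold change reached 1.29 (limma adjusted p = 7.98e-05). Psmb10, the counterpart of Psmb7, and Psmb8, that of Psmb5, had log2 fold changes of 0.72 and 0.52 (limma adjusted p = 0.000591 and 0.00423). The ratio of Psmb9 to Psmb6 was 0.263 to 0.317 in LSC-labelled and 0.145 to 0.208 in HSC-labelled libraries, without overlap, whereas the ratios of Psmb10 to Psmb7 and of Psmb8 to Psmb5 overlapped between the groups. Beside the PA28 and immunoproteasome genes, 19 of 22 interferon-response genes were higher by limma, against 27.2% of all genes tested. The median log2 fold change of these 22 genes was 1.45. Their largest changes were those of Oasl2 (4.08) and Isg15 (3.63), and the part of this response in the levels of Psme1 and Psme2 was not tested.

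Of 19 genes tested that work with the proteasome but lie outside the symbol pattern, 5 were higher and 1 lower. Their median log2 fold change was 0.19, against 0.11 for all genes tested. Of all genes tested, 27.2% were higher and 13.8% lower. Txnl1, a thioredoxin bound to the cap, and Ubqln4, a shuttle factor, were higher (0.73 and 0.71, limma adjusted p = 0.000708 and 0.000242). Sem1, the smallest lid subunit and the partner that was lower, averaged 105 ± 3.24 FPKM in LSC-labelled and 141 ± 27.5 FPKM in HSC-labelled libraries (SD, n = 5 each, limma adjusted p = 0.0237); it was named after its values were seen. Adrm1, a ubiquitin receptor of the base, averaged 32.9 ± 5.21 FPKM in LSC-labelled and 27.4 ± 1.78 FPKM in HSC-labelled libraries (SD, n = 5 each, limma adjusted p = 0.0998). Pomp, the chaperone that completes the core, averaged 49.98 ± 5.05 FPKM in LSC-labelled and 44.7 ± 7.03 FPKM in HSC-labelled libraries (SD, n = 5 each, limma adjusted p = 0.287). Neither Adrm1 nor Pomp passed the test.

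Of 13 genes of the NRF1 and p97 axis that controls proteasome transcription, 2 were higher and 2 lower. Under median-of-ratios scaling 1 was higher and 3 lower, as Vcp lost its call and Mafg gained one. Nfe2l1, which encodes NRF1, was not called, at 11.2 ± 1.495 FPKM in LSC-labelled and 10.2 ± 0.888 FPKM in HSC-labelled libraries (SD, n = 5 each, limma adjusted p = 0.382). Nfe2l2, which encodes NRF2, was higher, at 59.7 ± 8.31 FPKM in LSC-labelled and 35.6 ± 5.97 FPKM in HSC-labelled libraries (SD, n = 5 each), with a log2 fold change of 0.73 (limma adjusted p = 0.00111). Maff, a small partner factor of both, was lower, with a log2 fold change of -0.65 (limma adjusted p = 0.000971). Of 18 ubiquitin genes and ubiquitin-activating or conjugating enzymes, 3 were higher and 2 lower. Both this list and that of the axis stand beside 27.2% higher and 13.8% lower over all genes tested. Ube2n, a conjugating enzyme, had a log2 fold change of 0.39, and Ube2r2, another, of -0.35 (limma adjusted p = 0.0113 and 0.0212). Under median-of-ratios scaling 1 gene of this list, Ube2l3, was higher and 4 were lower, and Ube2n lost its call (limma adjusted p = 0.0639).

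The same libraries held the lowest or highest values of many members. LSC-labelled replicate 1 was the lowest of its group for 32 of the 46 members tested, and HSC-labelled replicate 4 was the lowest of its group for 35. HSC-labelled replicate 5 was the highest of its group for 30. After median-of-ratios scaling these counts were 35 for LSC-labelled replicate 1, 20 for HSC-labelled replicate 4 and 18 for HSC-labelled replicate 5. All 47 members together took 1.19% to 1.30% of the FPKM sum in LSC-labelled libraries and 0.791% to 1.09% in HSC-labelled libraries. Of the HSC-labelled libraries, replicate 5 came nearest to the LSC-labelled share and replicate 4 lay farthest from it.

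**Figure D4:**
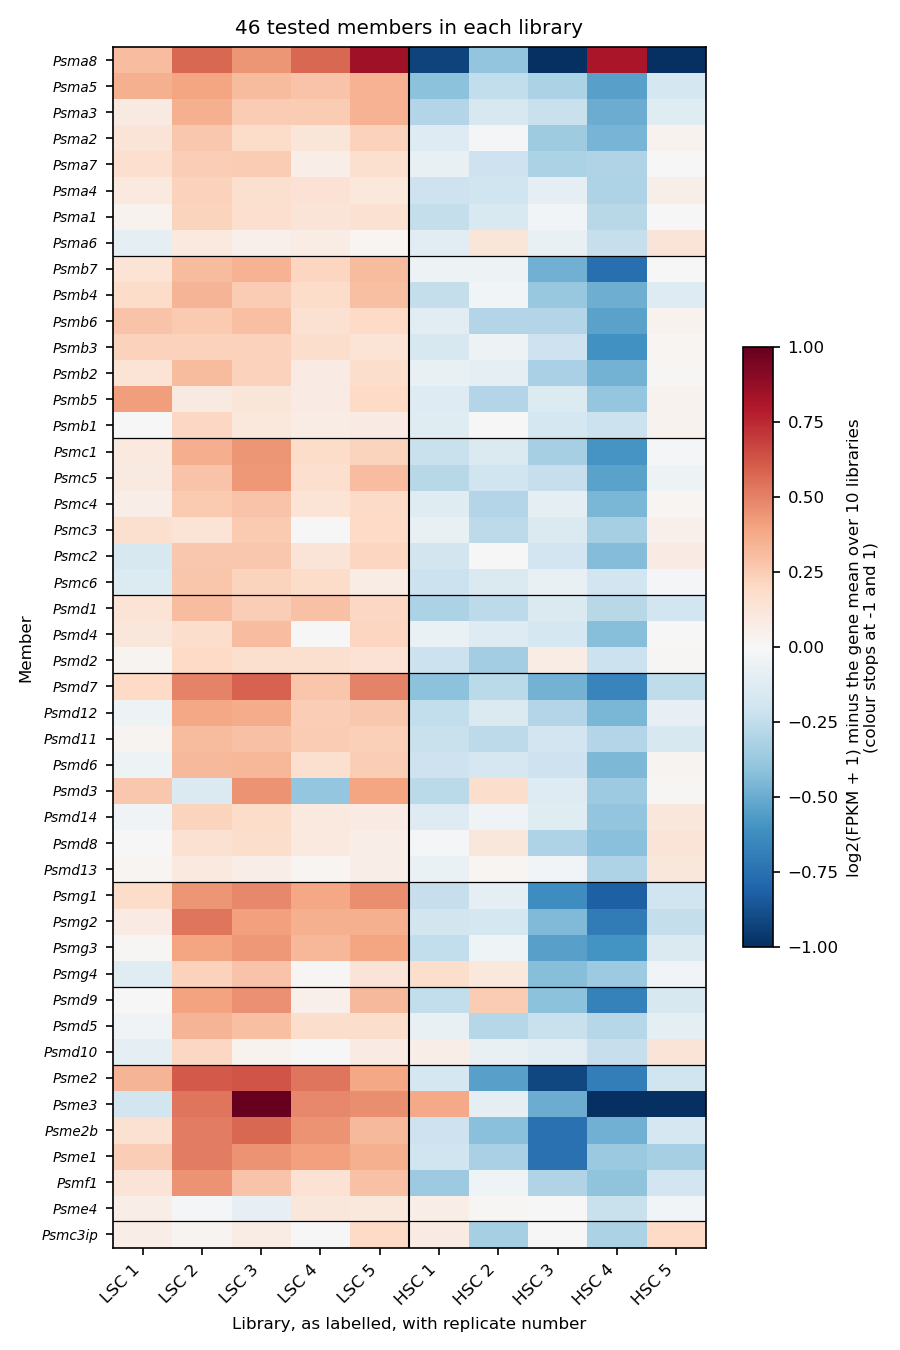
Level of each of the 46 members tested (rows, by class) in each library (columns, LSC-labelled left and HSC-labelled right), as log2(FPKM + 1) minus the gene's mean over all 10 libraries; red is above and blue below the mean, and the colours stop at 1 unit. The LSC-labelled columns are red and the HSC-labelled columns blue for most rows, and HSC-labelled replicate 4 is the lowest HSC-labelled column for 35 genes.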

How the data were processed

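The deposited table gives 1 FPKM value per gene and library, made by the authors, with no counts. The submitters' processing notes name Bowtie 0.12.9, Cufflinks 2.1.1, HTSeq, DESeq2 and the build mm10, with no role for each. Not given in the sources used here: the annotation, the gene lengths and whether strand was counted. Per the labels' protocols, the RNA was amplified by the Geo-seq method and the libraries were made with a transposase kit. Depth is unknown: the steps of low values gave whole reads for 54.6% to 67.4% of values (within 0.05), so reads were not recovered and no count test was run.

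Ensembl IDs were matched to GENCODE M21, and 51246 of 51456 matched. The filter kept genes reaching 1 FPKM in 5 or more libraries. Log2(FPKM + 1) values were compared by limma 3.58.1 (R 4.3.3), with a mean trend in the moderated variance, a two-sided test and Benjamini-Hochberg adjustment over all genes tested, at 0.05. A fold change on this scale understates that of low genes. Sums, motifs and figures were made with Python 3.11.15, numpy 2.4.6, pandas 2.3.3 and matplotlib 3.10.9, and the fit was tested on simulated data. The members, the gene lists and the tests were chosen with earlier results of these data known. Values per library are given for the catalytic subunits, for every activator gene and, in each other class, for the 2 called members of largest change and the most abundant member. Every member not called is named with its values. For the related lists, the 2 called genes of largest change are named, with Nfe2l1, Pomp, Adrm1 and the 3 immunoproteasome subunits. Alternatives were another scaling (median of ratios, quantiles, equal sums without ribosomal RNA, removal of GC and length trends), pseudocount, filter, variance model, replicate block, and leaving out each library.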

Additional observations from a re-analysis of the deposited data

Results flagged for a closer look

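Each of the 47 members was looked at in both groups of 5 libraries, 94 groups in all, for a library separated from the other 4 by more than 0.71 of the group's range. Chance flags about 1 in 20 groups, and 3 stood out here. Psmd11, a scaffold subunit of the lid, was at 65.7 FPKM in LSC-labelled replicate 1, below the 76.3 to 80.5 FPKM of the other 4 LSC-labelled libraries and above all HSC-labelled libraries. Psmg3, a core assembly chaperone, was at 12.5 FPKM in LSC-labelled replicate 1, below the 15.9 to 17.2 FPKM of the other 4 LSC-labelled libraries. Psma8, the testis alpha subunit, was at 4.80 FPKM in HSC-labelled replicate 4, above the 0.444 to 1.51 FPKM of the other 4 HSC-labelled libraries and within the LSC-labelled range.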

How the results depend on the processing

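Over all alternatives, 27 to 36 members were called higher, against 35 as reported, and the lowest count came from median-of-ratios scaling. The counts ran from 10 to 13 for the core and from 8 to 14 for the cap. Median-of-ratios scaling lowered the members' median log2 fold change to 0.26, the log2 difference of the summed core to 0.23 (0.37 as reported) and that of the summed cap to 0.25 (0.38 as reported). The small excess of cap over core, 0.01 on the log2 scale, changed sign under quantile normalization (-0.009), as a mean over members of log2(FPKM + 1) (-0.019) and without LSC-labelled replicate 3. Without each library in turn it ran from -0.009 to 0.04, the core difference from 0.31 to 0.41, the cap difference from 0.33 to 0.43, the members' median from 0.33 to 0.45 and the calls from 29 to 36. Over all genes, 1859 were lower as reported, 1195 with a filter of 5 FPKM, which tests fewer genes, and 2833 with quantile normalization. Of all calls over all genes, 66.3% were higher as deposited, 51.5% by median of ratios, 49.6% by quantiles, 52.2% with GC and length trends removed and 61.7% with equal sums. The cause of these shifts was not tested. Leaving out HSC-labelled replicates 3 and 4 was added after the data were seen.

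Both groups number their replicates 1 to 5, but the numbers showed no clear pairing of the libraries. Same-numbered libraries correlated at -0.29 to 0.225 in their deviations from the group means. With no reference to judge these values by, a pairing is not excluded. With the replicate block, 32 members were called higher (3405 of all genes), and Psmc6, Psmd2 and Psme3 lost their calls. FPKM carry no depth, so no counting error can be given for low genes such as Psma8, Psme4 and Psmb11.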
